A study of Saccharomyces cerevisiae with 6 samples.

Results

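The stretch described here is the 5′ part of domain I of 25S rRNA in Saccharomyces cerevisiae, without the expansion segment ES7. It was chosen by position alone, as nucleotides 3252 to 3686 of the 35S pre-rRNA counted from its 5′ end, the first of which is also the first nucleotide of 25S. It makes up 6.34% of the 6858 nucleotides of the transcript. Every nucleotide of the stretch had a value in both strains, as did 6542 nucleotides of the whole transcript. The flexibility of each nucleotide was read by SHAPE with 1M7, which reacts with the ribose of unconstrained nucleotides so that reverse transcriptase stops beside the adduct.

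The RNA came from particles purified through TAP-tagged Mrd1, a protein with several RNA-binding domains that joins the pre-rRNA early. The strain called the mutant here has the genotype mrd1-deltaRDB5-TAP::K.I.TRP1 with pGAL-HA-MRD1::URA3. Its purified Mrd1 is read from that label as lacking the RNA-binding domain RBD5, and its HA-tagged MRD1 gene stands under a galactose promoter. The cells called Erb1-depleted have the genotype GAL::3HA-ERB1::KAN with MRD1-TAP::URA3, so Mrd1 is intact and ERB1 is under the galactose promoter. Both derive from BY4741. The labels name glucose medium and medium with galactose and raffinose, without saying which strain was kept in which or for how long. The mutant was represented by 2 libraries treated with 1M7 and 2 treated with the solvent DMSO, and Erb1-depleted cells by 2 libraries treated with 1M7. No library of a strain without either change, and no DMSO library labelled for Erb1-depleted cells, was analysed here, so the effect of the Mrd1 change and that of Erb1 depletion cannot be told apart. The deposited table gives 1 value per nucleotide and strain with the libraries combined, and the depth is unknown. No difference below could be set against a spread between replicates, and no test was made.

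In the mature large subunit, domain I of 25S is held together with 5.8S rRNA, whose ends pair with separate stretches of it. In the pre-rRNA the internal spacer ITS2 still joins 5.8S to the first nucleotide of 25S. Domain I lies on the solvent side of the subunit, around the exit of the polypeptide tunnel. Erb1 acts with Nop7 and Ytm1 in early large-subunit particles and is needed to process the 27S precursor, whereas Mrd1 acts in the small-subunit branch. The reference sequence is that of RDN37-1, a copy of the ribosomal DNA repeat, on its transcribed strand. No genome build is given for it, and a position in 25S or 5.8S numbers that molecule's own nucleotides, with 1 at its 5′ end.

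The stretches of 25S that hold most of the differences between the strains are shown from the deposited reference, 5′ to 3′ and with T written as U. Capitals mark nucleotides modified in the named strain, which means a posterior probability of modification of at least 0.95 from the authors' BUM_HMM values.
25S 12 to 34, mutant: aaUcagguAggAGUAcccgcuGA
25S 12 to 34, Erb1-depleted cells: aaucagguAgGAGUAcccgcuGA
25S 48 to 70, mutant: aAuAAgcggaGGaaaagaaacca
25S 48 to 70, Erb1-depleted cells: AAUAAgcgGAGGAAAagaaacca
25S 111 to 129, mutant: cucaaauuugaaaucuggu
25S 111 to 129, Erb1-depleted cells: cucaaauuUGAaAucuggu
25S 146 to 165, mutant: uuguaauuUggAgagggcAA
25S 146 to 165, Erb1-depleted cells: uuguaauuUGGAgagggcaa
25S 242 to 273, mutant: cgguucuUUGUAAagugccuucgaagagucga
25S 242 to 273, Erb1-depleted cells: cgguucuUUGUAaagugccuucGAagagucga
25S 299 to 346, mutant: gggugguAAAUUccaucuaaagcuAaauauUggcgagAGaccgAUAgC
25S 299 to 346, Erb1-depleted cells: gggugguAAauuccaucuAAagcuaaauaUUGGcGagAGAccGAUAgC
25S 382 to 400, mutant: ugAaaagagagugaaaAAg
25S 382 to 400, Erb1-depleted cells: UGAAAAGAGAGUGAAAAAG
25S 413 to 432, mutant: uugaaagGGAagggcauuug
25S 413 to 432, Erb1-depleted cells: uugaaagGGAAGggcauuug
In 25S 48 to 70 and 382 to 400 the capitals of Erb1-depleted cells fill purine-rich stretches that are partly or mostly in lower case in the mutant. In 25S 299 to 346 each strain has capitals that the other lacks.

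The 25S stretches that the predicted joint fold pairs with 5.8S are shown next, since the reactivities are set against that pairing below. Here the capitals mark nucleotides paired between the molecules in the prediction, which was made from the sequences alone.
25S 4 to 20: UGACCUCAAAuCAGGUA
5.8S 139 to 155: UGCCUGUUUGAGcGUCA
25S 368 to 419: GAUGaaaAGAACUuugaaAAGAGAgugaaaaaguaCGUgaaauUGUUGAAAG
5.8S 4 to 35: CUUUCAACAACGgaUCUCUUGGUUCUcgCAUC
The first 25S stretch was paired with 5.8S 139 to 155, near the 3′ end of 5.8S, through 16 pairs. The second was paired with 5.8S 4 to 35, near its 5′ end, through 28 pairs.

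The first comparison asked which nucleotides of domain I were open to 1M7. In the mutant 87 nucleotides were modified (20% of the stretch, Wilson 95% interval 16.5 to 24.0), with a background of 18.5% over the whole transcript. In Erb1-depleted cells 132 were modified (30.3%, interval 26.2 to 34.8), with a background of 21.1% over the whole transcript. The intervals take each nucleotide as an independent draw, and the spread between libraries is not in them. In the rest of 25S the shares were 19.2% in the mutant and 19.7% in Erb1-depleted cells, and in 5.8S they were 32.3% and 33.5% in the same order of strains. The share of domain I in the mutant was near that of the transcript, and the shares of the strains lay closer together in the rest of 25S and in 5.8S than in domain I. Whether domain I differs from other stretches of its length was not tested.

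The strains shared 75 modified nucleotides of domain I (background over the transcript 15.1%), which were 86.2% of the mutant's list and 56.8% of the list of Erb1-depleted cells. Another 12 were modified in the mutant only (2.76%, against 3.55% over the transcript) and 57 in Erb1-depleted cells only (13.1%, against 6.13%). At the shared nucleotides normalized reactivity had a median of 0.624 in the mutant and 0.616 in Erb1-depleted cells. At those modified in Erb1-depleted cells only it was 0.152 in the mutant and 0.339 in Erb1-depleted cells, and 24 of the 57 were at 0 in the mutant. Raw scores were higher in the mutant at 18 of the 75 shared nucleotides and in Erb1-depleted cells at 57. At the 57 nucleotides modified in Erb1-depleted cells only, raw scores were higher in the mutant at 12 and in Erb1-depleted cells at 45. The posterior of these 57 in the mutant was mostly far from the threshold, with 4 at 0.5 or above.

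Unlike the modification calls, mean reactivity over domain I did not rank the strains the same way on every scale. Over domain I the normalized scores averaged 0.164 in the mutant and 0.177 in Erb1-depleted cells, below the 0.248 and 0.256 of the whole transcript for the same strains. Normalized scores were 0 at 276 nucleotides of the mutant and at 274 of Erb1-depleted cells, because the deposited normalization sets negative raw scores to 0. Mean raw reactivity was −0.0379 in the mutant and −0.0440 in Erb1-depleted cells, so domain I lay below the transcript mean, which is 0 in each raw column. Raw scores were higher in the mutant at 229 nucleotides and higher in Erb1-depleted cells at 206. The mean difference of 0.00611 changed sign on each of 4 other scales, so it gives no direction. Over the nucleotides of domain I, which are neighbours in 1 molecule and not replicates, Pearson's r between the raw columns was 0.860, and over the transcript it was 0.868.

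**Figure D1:**
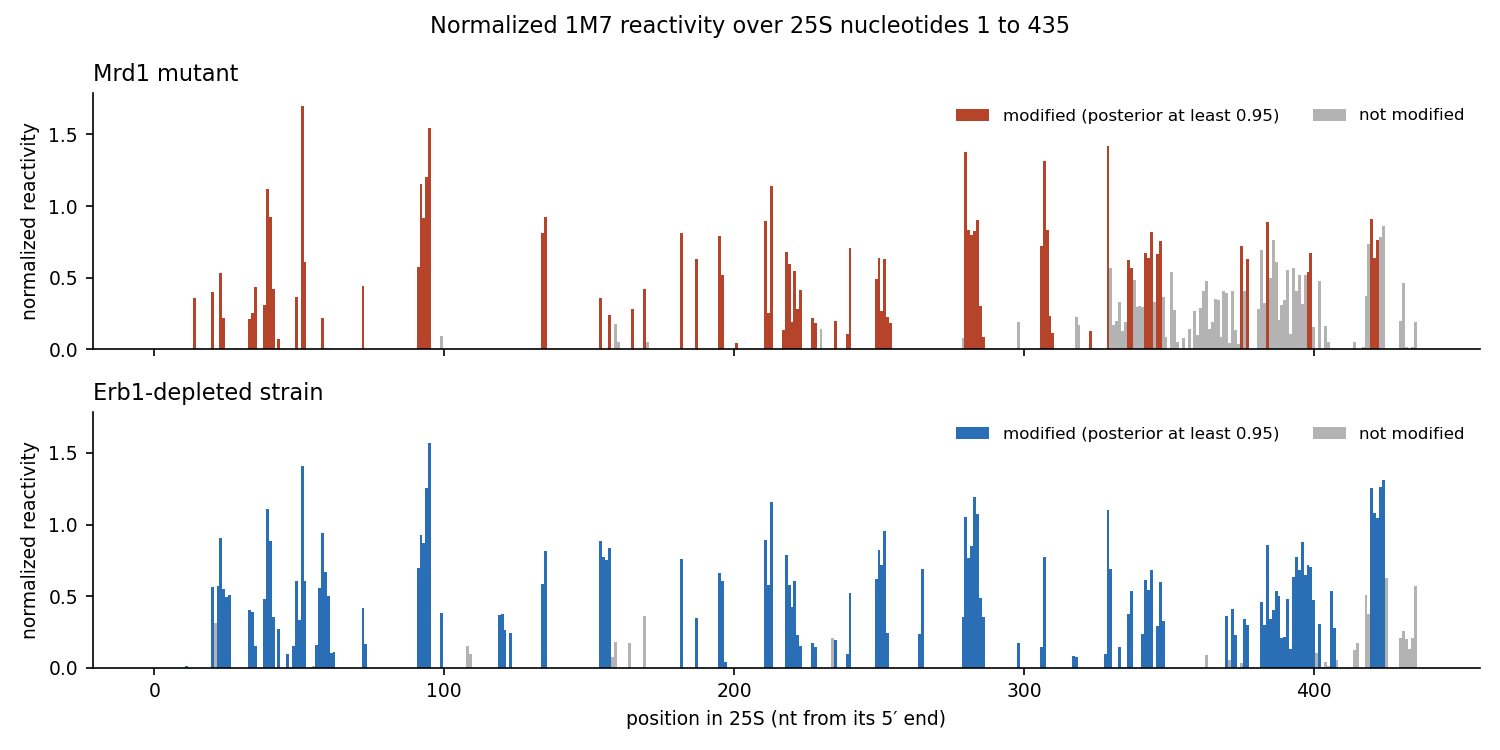
Normalized 1M7 reactivity of each nucleotide of domain I before ES7 in the mutant (upper panel) and in Erb1-depleted cells (lower panel), with 1 deposited value per nucleotide and strain. Coloured bars are modified at a posterior of at least 0.95 and grey bars are not. The tallest bars are A51 in the mutant (1.70) and A95 in Erb1-depleted cells (1.57), and the grey bars of the mutant gather after position 330.

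The most reactive nucleotides were ranked in each strain among modified ones, passing over any less than 5 nt from a higher one, and 5 of the 10 so chosen were the same in both strains. A51 had a normalized reactivity of 1.70 in the mutant and 1.41 in Erb1-depleted cells. A95 had 1.55 in the mutant and 1.57 in Erb1-depleted cells. U329 had 1.42 in the mutant and 1.10 in Erb1-depleted cells. These 3, with A213 (1.14 in the mutant and 1.16 in Erb1-depleted cells) and A39 (1.12 in the mutant and 1.11 in Erb1-depleted cells), were on both lists. The other 5 of the mutant's list were U280 (1.38 in the mutant, 1.05 in Erb1-depleted cells), A307 (1.31 and 0.773 in that order), C135 (0.927 and 0.814), G420 (0.907 and 1.26) and A384 (0.885 and 0.855). The other 5 of the list of Erb1-depleted cells were G424 (0.859 in the mutant, 1.31 in Erb1-depleted cells), G283 (0.827 and 1.19 in that order), U252 (0.632 and 0.956), G58 (0.219 and 0.942) and A23 (0.534 and 0.905). Of these 15 nucleotides 7 were adenosines, which make up 30.6% of the stretch, and 11 were predicted to be unpaired, as were 41.6% of all its nucleotides. They were drawn from modified nucleotides, of which 46.0% in the mutant and 45.5% in Erb1-depleted cells were adenosines. Of the modified, 52 of 87 in the mutant and 88 of 132 in Erb1-depleted cells were predicted to be unpaired. G424 was modified in Erb1-depleted cells only, and the other 14 in both strains.

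Both strains modified 6 runs of at least 4 adjacent nucleotides. The most reactive was 25S 91 to 95, with the sequence GGCGA, a mean normalized reactivity of 1.08 in the mutant and 1.06 in Erb1-depleted cells, and 0 called differences. From G91 to A95 the values were 0.578, 1.15, 0.915, 1.21 and 1.55 in the mutant, against 0.695, 0.925, 0.869, 1.26 and 1.57 in Erb1-depleted cells. The longest was 25S 280 to 286, with the sequence UGGGAAU and means of 0.732 in the mutant and 0.824 in Erb1-depleted cells. Its 7 nucleotides were all predicted to be unpaired, whereas all 5 of 25S 91 to 95 were predicted to be paired. The means were 0.693 in the mutant and 0.707 in Erb1-depleted cells at 25S 38 to 41, and 0.452 and 0.464 in that order at 25S 218 to 223. The remaining runs, 25S 23 to 26 and 249 to 253, held nucleotides called different between the strains and are described below.

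By base, adenosines were modified most often. In the mutant 30.1% of the 133 adenosines, 20.2% of the 104 uridines, 17.2% of the 128 guanosines and 5.71% of the 70 cytidines were modified. In Erb1-depleted cells the shares were 45.1% of adenosines, 32.8% of guanosines, 24.0% of uridines and 7.14% of cytidines. Of the 57 nucleotides modified in Erb1-depleted cells only, 27 were adenosines, 20 were guanosines, 9 were uridines and 1 was a cytidine. Over the whole transcript guanosines were also modified less often in the mutant (11.0%) than in Erb1-depleted cells (16.4%), so the larger number of guanosines was not confined to domain I. The share of adenosines over the transcript was 35.0% in the mutant and 38.4% in Erb1-depleted cells. For uridines it was 18.3% in the mutant and 19.8% in Erb1-depleted cells, and for cytidines 6.68% and 5.72% in that order.

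Along domain I the strains parted in some windows of 50 nt and not in others. In 25S 201 to 250, 18 nucleotides were modified in the mutant and 16 in Erb1-depleted cells, and in 25S 151 to 200 the numbers were 9 and 9. In 25S 1 to 50 they were 15 in the mutant and 19 in Erb1-depleted cells, and in 25S 51 to 100 they were 10 and 17 in that order. The sparsest window in both strains was the third, which ends at position 150, with 2 in the mutant and 6 in Erb1-depleted cells. In 25S 351 to 400 only 5 were modified in the mutant and 24 in Erb1-depleted cells, so that 20 of the 57 nucleotides modified in Erb1-depleted cells only lay in this window. Without it, 82 of 385 nucleotides were modified in the mutant (21.3%) and 108 in Erb1-depleted cells (28.1%), and 37 were modified in Erb1-depleted cells only (9.61%).

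**Figure D2:**
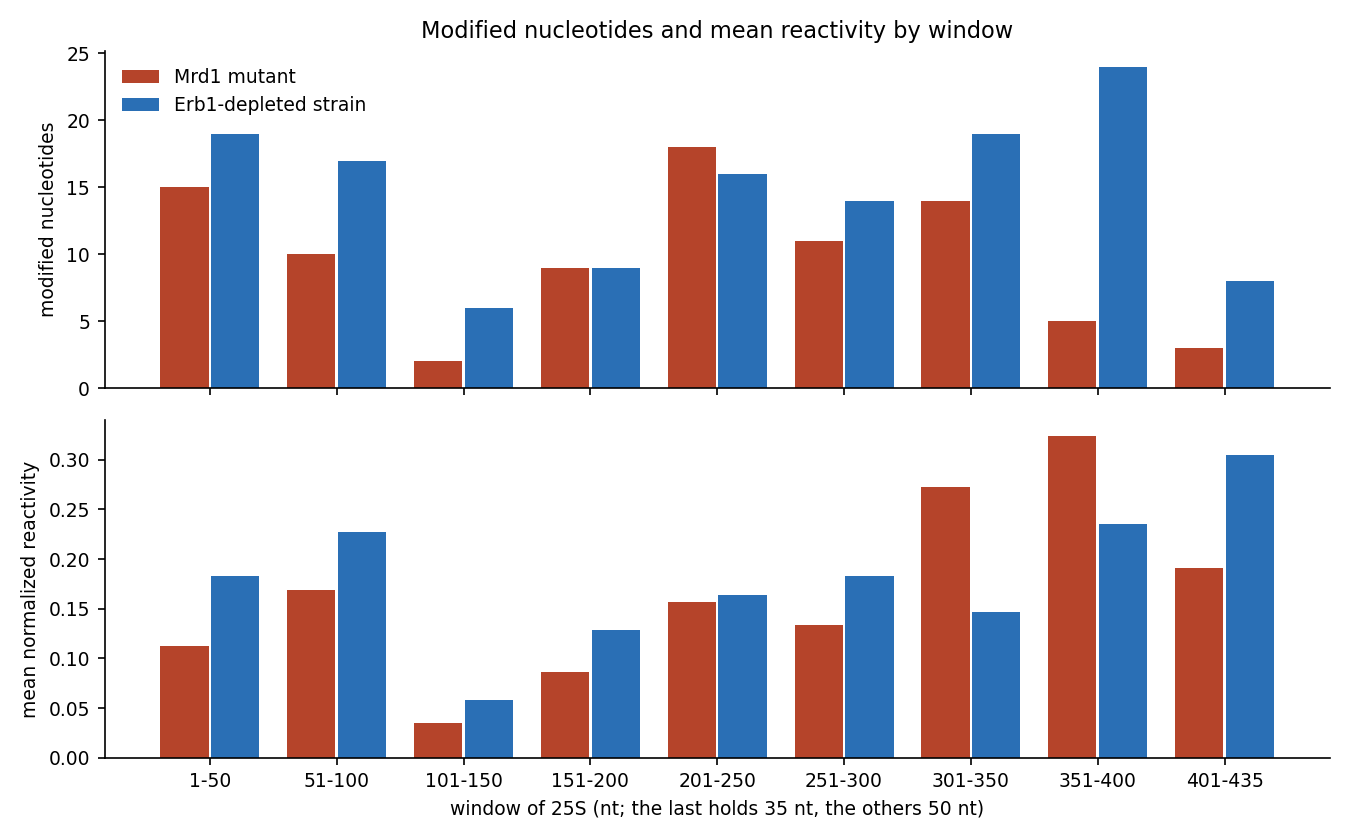
Number of modified nucleotides (upper panel) and mean normalized reactivity (lower panel) in consecutive windows of domain I before ES7, with the mutant left of Erb1-depleted cells in each pair. In 25S 351 to 400 the mutant has 5 modified nucleotides against 24, while its mean reactivity of 0.323 is above the 0.236 of Erb1-depleted cells.

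In that window mean normalized reactivity went the other way from the modification calls. Of the 20 nucleotides modified there in Erb1-depleted cells only, 10 had the higher normalized reactivity in the mutant. The mean in 25S 351 to 400 was 0.323 in the mutant and 0.236 in Erb1-depleted cells, and in 25S 301 to 350 it was 0.273 in the mutant and 0.147 in Erb1-depleted cells. The longest run modified in Erb1-depleted cells, 25S 382 to 400 (19 nucleotides, shown above), had 3 modified nucleotides in the mutant. Its normalized reactivities lay between 0.110 and 0.885 in the mutant, with a mean of 0.472, and between 0.130 and 0.875 in Erb1-depleted cells, with a mean of 0.524. Normalized reactivity was higher in the mutant at 9 of these nucleotides and in Erb1-depleted cells at 10. Raw scores were higher in Erb1-depleted cells at 14 of these nucleotides and in the mutant at 5, with a mean difference of −0.0297. By the rule given below, 3 were called higher in Erb1-depleted cells and 0 in the mutant. The strains thus overlapped in normalized reactivity over a run where they differed in 16 modification calls, with raw scores leaning toward Erb1-depleted cells.

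The same gap between call and reactivity was seen for single reactive nucleotides of the mutant from position 330 on. Of the 60 nucleotides of domain I with a normalized reactivity of at least 0.5 in the mutant, a level chosen after the values were seen, 48 were modified (80%). The 12 that were not lay between positions 330 and 424, and in 25S 351 to 400 only 5 of 13 were modified. In Erb1-depleted cells 68 of 71 such nucleotides were modified (95.8%), and 10 of 10 in 25S 351 to 400. In the rest of the transcript the share was 70.3% in the mutant and 71.7% in Erb1-depleted cells. In the rest of 25S it was 83.2% in the mutant and 74.8% in Erb1-depleted cells. Counts of modified nucleotides in 25S 351 to 400 thus did not follow the mean reactivity there. The read numbers that enter the posterior are not in the table, and their part in this was not tested.

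**Figure D3:**
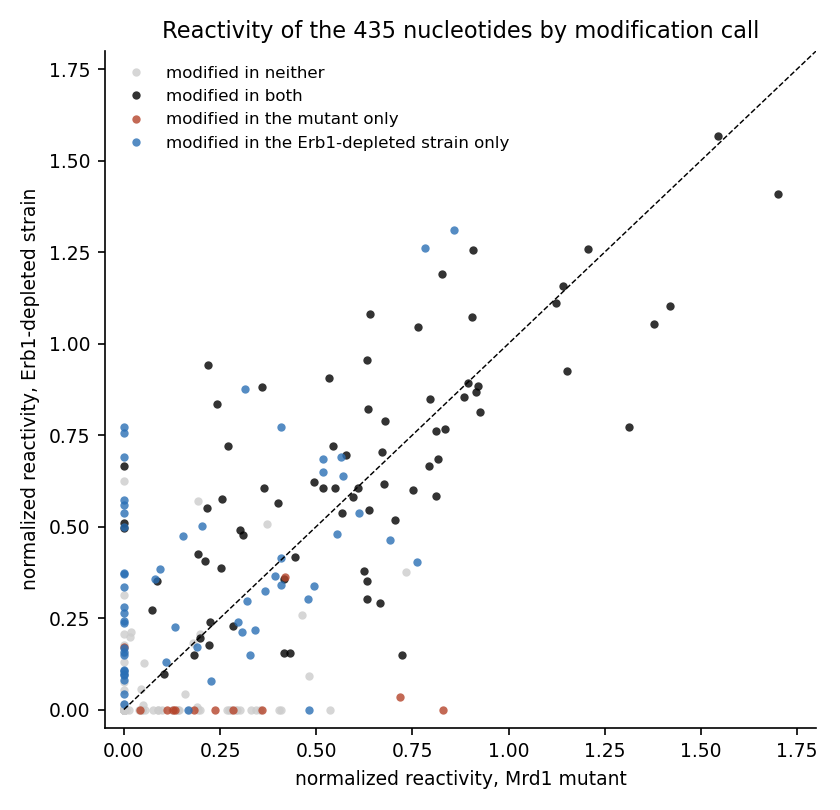
Normalized reactivity of the nucleotides of domain I in the mutant (horizontal axis) and in Erb1-depleted cells (vertical axis), coloured by the strains in which the nucleotide was modified, with the line of equal values dashed. Of the 57 nucleotides modified in Erb1-depleted cells only, 24 lie at 0 on the mutant's axis and 18 lie on the mutant's side of the line. On raw scores, not drawn here, 12 of the 57 were higher in the mutant and 45 in Erb1-depleted cells.

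The longest stretch modified in neither strain lay just before that run, at 25S 349 to 369.
25S 349 to 369, both strains: acaaguacagugauggaaaga
All 21 nucleotides had a higher raw score in the mutant. Their normalized scores averaged 0.202 and reached 0.537 in the mutant, and averaged 0.00441 and reached 0.0926 in Erb1-depleted cells. Without the filter on modification, 20 of the 21 were called higher in the mutant by the rule given below (background over the transcript 13.7%). Since both raw columns average 0 over the transcript, a stretch that is higher in one strain is offset by stretches that are lower.

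At the 5′ border, G1 and U2 of 25S and A232, the last nucleotide of ITS2, had a normalized reactivity of 0 in both strains. A231 of ITS2 had 0.0130 in the mutant and 0.0637 in Erb1-depleted cells. At the 3′ border, U434 had 0.0192 in the mutant and 0.211 in Erb1-depleted cells, and C435 had 0.191 in the mutant and 0.570 in Erb1-depleted cells. Just outside it A436 had 0.348 in the mutant and 0.434 in Erb1-depleted cells, and G437 had 0 and 0.600 in that order.

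The next comparison set the modified nucleotides against the predicted pairing. In the joint fold of 5.8S with this stretch of 25S, 181 nucleotides of 25S were unpaired, 210 paired within the stretch and 44 paired with 5.8S. Unpaired nucleotides were modified more often than paired ones in both strains. In the mutant 52 of the 181 unpaired nucleotides were modified (28.7%, interval 22.6 to 35.7) and 35 of the 254 paired ones (13.8%, interval 10.1 to 18.6). In Erb1-depleted cells 88 of the unpaired were modified (48.6%, interval 41.4 to 55.9) and 44 of the paired (17.3%, interval 13.2 to 22.5). The unpaired share was the higher for each base in both strains, but the gap varied. In the mutant 31.6% of unpaired and 27.8% of paired adenosines were modified, and 23.1% and 18.5% of uridines. Of its guanosines 31.25% of the unpaired and 8.75% of the paired were modified, and of its cytidines 20% and 1.82%. Adenosines were 79 of the unpaired nucleotides and 54 of the paired, so base composition enters these shares. The fold is a prediction and not the structure in the particles, which also hold proteins.

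The nucleotides modified in Erb1-depleted cells only were mostly unpaired in the prediction, as were those modified in both strains. Those modified in Erb1-depleted cells only numbered 40 among the unpaired, 8 among those paired within 25S and 9 among those paired with 5.8S. The 75 modified in both strains numbered 48, 25 and 2 in the same 3 classes, and those modified in the mutant only 4, 7 and 1. Within 25S helices the share modified was 15.2% in the mutant and 15.7% in Erb1-depleted cells. Among unpaired guanosines 15 of 48 were modified in the mutant and 27 in Erb1-depleted cells, and among unpaired adenosines 25 of 79 in the mutant and 43 in Erb1-depleted cells. Paired cytidines were the least modified class, with 1 of 55 in each strain.

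**Figure D4:**
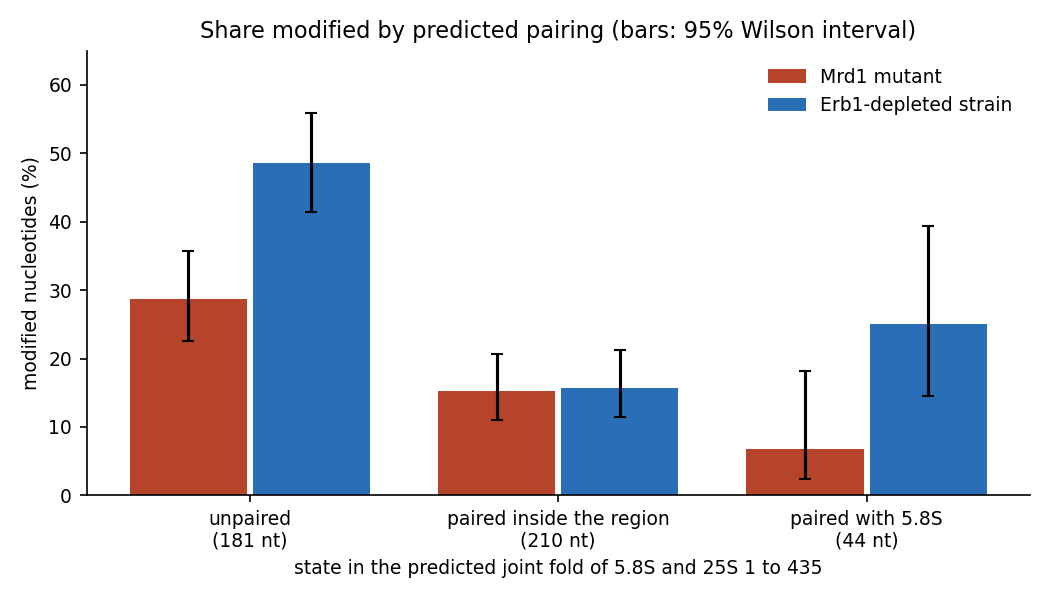
Share of modified nucleotides among the 181 unpaired nucleotides of domain I before ES7, the 210 paired within it and the 44 paired with 5.8S in the predicted fold, with the mutant left of Erb1-depleted cells. Error bars are Wilson 95% intervals over nucleotides, and the unpaired class is the highest in both strains (28.7% in the mutant and 48.6% in Erb1-depleted cells).

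Of the 44 nucleotides predicted to pair with 5.8S, 3 were modified in the mutant (6.82%) and 11 in Erb1-depleted cells (25%). The stretch near the 5′ end of 25S, 4 to 20, had low scores at most nucleotides. Within its 16 pairs 1 nucleotide was modified in the mutant (6.25%) and 2 in Erb1-depleted cells (12.5%), and the normalized scores of the paired nucleotides averaged 0.0250 in the mutant and 0.0363 in Erb1-depleted cells. A20, which is among them, was modified in both strains. Within the 28 pairs of 25S 368 to 419, 2 nucleotides were modified in the mutant (7.14%) and 9 in Erb1-depleted cells (32.1%). Their normalized scores averaged 0.245 in the mutant and 0.168 in Erb1-depleted cells, so here too the mean was higher in the strain with fewer modified nucleotides. The paired nucleotides of this stretch thus had higher mean scores than those of 25S 4 to 20 in both strains, while the modified share in the mutant was about the same in both stretches. This stretch overlaps the run 25S 382 to 400, where the strains differed in 16 modification calls. On the other strand, 4 of the 44 partner nucleotides in 5.8S were modified in the mutant (9.09%) and 6 in Erb1-depleted cells (13.6%), against 41.2% of the other 5.8S nucleotides in each strain.

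The last comparison was of the raw scores between the strains. A difference was called where the score smoothed over 3 nt differed by at least 1 SD of all smoothed differences over the transcript, at 3 or more nucleotides of a window of 5 nt, with a Z-factor above 0, and where the nucleotide was modified in at least 1 strain. The standardized difference is the mutant minus Erb1-depleted cells in units of that SD. The Z-factor was above 0 at every nucleotide of domain I (median 0.994). That condition therefore excluded no nucleotide there, and the calls rest on the other conditions. In domain I 40 nucleotides in 14 runs were called (9.20%, against 5.96% over the transcript). The called share was 10.8% in 5.8S and 4.96% in the rest of 25S. Of the 40 in domain I, 8 were higher in the mutant (background 0.81%) and 32 higher in Erb1-depleted cells (background 5.15%). Without the filter on modification, 73 were called higher in the mutant (background 13.7%) and 44 in Erb1-depleted cells (background 11.4%). The balance thus turned with the filter in domain I, as it did over the whole transcript. The raw columns were compared unscaled, and their SD over the transcript was 0.124 in the mutant and 0.150 in Erb1-depleted cells. The part of this unequal spread in either balance was not tested.

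**Figure D5:**
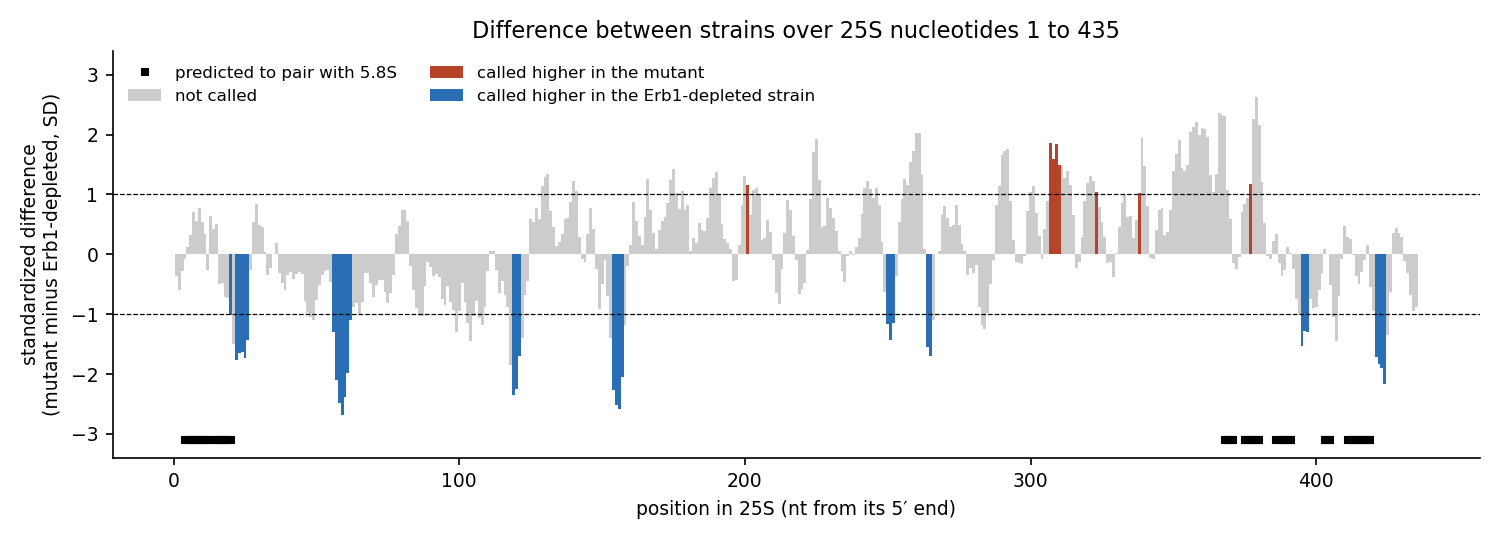
Standardized difference of the smoothed raw scores, mutant minus Erb1-depleted cells, at each position of domain I before ES7, with dashed lines at the threshold of 1 SD and black squares at nucleotides predicted to pair with 5.8S. The 32 nucleotides called higher in Erb1-depleted cells form 9 runs spread from position 20 to 424, and 6 of the 8 called higher in the mutant lie in 25S 301 to 350.

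The 32 nucleotides called higher in Erb1-depleted cells were 15 adenosines, 12 guanosines and 5 uridines, bases that make up 30.6%, 29.4% and 23.9% of domain I. The median of their normalized scores was 0.108 in the mutant and 0.675 in Erb1-depleted cells, and 16 of them were at 0 in the mutant. The direction of this gap follows from the selection, since normalized scores are rescaled raw scores. Predicted unpaired nucleotides made up 23 of the 32, and 41.6% of domain I. All of the 32 were modified in Erb1-depleted cells, so the list modified there is the closer background. Of its 132 nucleotides 88 were predicted to be unpaired, and 45.5% were adenosines, 31.8% guanosines and 18.9% uridines. Whether the called nucleotides differ from that list was not tested. The first 100 nucleotides of 25S held 13 of these calls (background 5.15%) and 0 in the other direction (background 0.81%). With so low a background, a count of 0 in 100 nucleotides says little.

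The longest run of called nucleotides was 25S 56 to 62, within the purine stretch shown above. From G56 to A62 the normalized reactivities were 0, 0, 0.219, 0, 0, 0 and 0 in the mutant, against 0.157, 0.558, 0.942, 0.666, 0.499, 0.106 and 0.108 in Erb1-depleted cells. All 7 were higher in Erb1-depleted cells, and the standardized difference averaged −2.01 and reached −2.68 at G59. The call at A62 was lost with a running median taken out of the difference (−0.73) and on normalized scores with negatives at 0 (−0.35). Only 2 of the 7 were modified in the mutant. Closer to the 5′ end, from G22 to A26, the values were 0, 0.534, 0.217, 0 and 0 in the mutant, against 0.572, 0.905, 0.550, 0.497 and 0.509 in Erb1-depleted cells. U25 and A26 were modified in the mutant by the posterior although their normalized reactivity was 0. A20, predicted to pair with 5.8S, had 0.40 in the mutant and 0.565 in Erb1-depleted cells, with a standardized difference of −1.02 at the edge of the threshold. Its call was lost under the same 2 settings, with values of −0.67 and −0.83.

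At 25S 154 to 157 the values from U154 to A157 were 0.360, 0, 0 and 0.241 in the mutant, against 0.883, 0.771, 0.755 and 0.836 in Erb1-depleted cells. The standardized difference averaged −2.35 over the 4 nucleotides, the highest mean size of any called run, and was −2.58 at G156. A running median taken out of the difference gave −3.63 at G156 and −2.69 at G59, so the order of these sites depends on the setting. At 25S 119 to 121, U119, G120 and A121 were at 0 in the mutant and had 0.369, 0.372 and 0.265 in Erb1-depleted cells. G155, G156 and these 3 nucleotides were modified in Erb1-depleted cells only. G264 and A265 were also at 0 in the mutant and had 0.235 and 0.691 in Erb1-depleted cells.

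The remaining runs toward Erb1-depleted cells were reactive in both strains. From G421 to G424 the values were 0.639, 0.765, 0.783 and 0.859 in the mutant, against 1.08, 1.05, 1.26 and 1.31 in Erb1-depleted cells, with a standardized difference of −2.17 at G424. From A395 to A397 they were 0.517, 0.314 and 0.517 in the mutant, against 0.685, 0.875 and 0.650 in Erb1-depleted cells. From U250 to U252 they were 0.634, 0.271 and 0.632 in the mutant, against 0.822, 0.720 and 0.956 in Erb1-depleted cells. The calls at 25S 250 to 252 did not pass when each strain's own normalization factor was applied, when the columns were set to equal SD or when they were quantile normalized. Those at 25S 395 to 397 did not pass with the last 2 of these scales.

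The 8 nucleotides called higher in the mutant were 6 adenosines and 2 uridines. The run 25S 307 to 310, with the sequence AAUU, held 4 of them. From A307 to U310 the normalized reactivities were 1.31, 0.830, 0.236 and 0.112 in the mutant, against 0.773, 0, 0 and 0 in Erb1-depleted cells, and the standardized difference was 1.86 at A307. All 4 were modified in the mutant, and of them A307 alone in Erb1-depleted cells. A377, predicted to pair with 5.8S, was modified in both strains and had 0.632 in the mutant and 0.302 in Erb1-depleted cells.

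The other 3 were close to the threshold and stood alone only after the filter on modification. Neighbours past 1 SD at positions 200 (1.30), 322 (1.23) and 339 (1.95) were modified in neither strain and so were not called. A201 had 0.0425 in the mutant and 0 in Erb1-depleted cells, and A323 had 0.128 in the mutant and 0 in Erb1-depleted cells. A338 had 0.481 in the mutant and 0 in Erb1-depleted cells, yet by the posterior it was modified in Erb1-depleted cells only, so its call and its modification point in opposite directions. The standardized differences were 1.16 at A201, 1.05 at A323 and 1.02 at A338. With a running median taken out of the difference, these 3 were no longer called, while A377 and the run 25S 307 to 310 were. The call at A201 was also lost with own factors (0.77), with SDs made equal (0.74), with quantile normalization (0.74) and on normalized scores with negatives at 0 (0.12). The call at A323 was lost under the same 4 settings, with values of 0.91, 0.89, 0.87 and 0.28. On these normalized scores the calls at A377 (0.77) and U310 (0.68) were lost as well.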

How the data were processed

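The members are 25S nucleotides 1 to 435, taken by position, 435 of the transcript's 6858 nucleotides. The lists and settings were chosen with earlier results of these data known. Novoalign (version not given in the sources used here) did the alignment, per the submitters' processing notes. Per the file headers, the authors deposited 1 column of scores for each strain and measure, with libraries combined: raw SHAPE reactivity scores, normalized scores (2% to 8% normalized, per the note in the sheet), BUM_HMM posteriors, and the authors' deltaSHAPE comparison. The sources used here do not say how raw scores were made or which controls were used for Erb1-depleted cells. Normalized scores in the table equal raw scores multiplied by 5.21 (mutant) or 4.35 (Erb1-depleted cells), with negatives at 0. No read numbers are given, and the depth is unknown. Nucleotides marked by the sheet's note as too thinly covered, of which domain I holds 0, were dropped.

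From these scores the calls were recomputed over the whole transcript (Python 3.11.15), and 0 of the 1646 calls, or of the 390 at modified nucleotides, differed from the authors' deposited table. The smoothing, threshold and window steps of the rule were run on simulated data with planted shifts, without the Z-factor and modification filters. Annotated region lengths were summed to place each region, since 18S and ITS1 share a nucleotide in the annotation. 25S 1 to 435 was folded jointly with 5.8S at 37 °C (ViennaRNA 2.7.2, default parameters, no reactivity used). Alternatives were posteriors of 0.9 and 0.99, 4 other scales, a running median over 101 nt, a threshold of 2 SD, no smoothing, other filters and other folds. The nucleotides named are every one called, the 10 most reactive modified ones of each strain at least 5 nt apart, runs of at least 4 modified in both strains, the longest run modified in neither, those beside the borders and those paired with 5.8S. The run 25S 382 to 400, the window 25S 351 to 400 and the level of 0.5 were chosen after the values were seen, as was the use of normalized scores as an alternative for single nucleotides.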

Additional observations from a re-analysis of the deposited data

How the results depend on the processing

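No paired analysis was possible because each deposited column combines the libraries of a strain, and for the same reason no replicate could be left out. At posteriors of 0.9 and 0.99, 91 and 82 nucleotides of domain I were modified in the mutant and 133 and 126 in Erb1-depleted cells. Of the 8 nucleotides called higher in the mutant, 5 were left at a posterior of 0.99 and 2 when modification in both strains was required. The number was 14 on normalized scores with negatives at 0, 0 at a threshold of 2 SD and 73 without the filter on modification. Against 32 called higher in Erb1-depleted cells, the number was 50 with a running median taken out, 8 at a threshold of 2 SD and 14 when modification in both strains was required. Fewer nucleotides can pass a stricter threshold or filter; the cause of the other changes was not tested. With each strain's own normalization factor applied, the calls toward the mutant numbered 10 and those toward Erb1-depleted cells 34. With SDs made equal they numbered 10 and 31 in that order, and with quantile normalization 12 and 31. Over the whole transcript the same 3 scales gave 95 and 254, 100 and 238, and 91 and 235. The original raw scores gave 53 and 337 there. Nucleotides called on both the original and one of these 3 scales numbered 35, 32 and 32, all in the same direction, which the shared threshold favours. The mean raw difference of 0.00611 (mutant minus Erb1-depleted cells) reversed to −0.00593 with own factors, to −0.0129 with SDs made equal, to −0.00197 with quantile normalization and to −0.0133 on normalized scores with negatives at 0. With 25S folded alone, 28.4% of unpaired and 13.9% of paired nucleotides were modified in the mutant, and 47.0% and 18.3% in Erb1-depleted cells. The joint fold at 30 °C, and 5.8S, ITS2 and 25S folded as 1 molecule, gave the same state and partner for every nucleotide. With 1 value per nucleotide and strain and no read numbers, neither the error of a reactivity nor the depth behind a posterior can be given.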
